A study of Mus musculus with 38 samples.

Results

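Striatal gene expression was compared between XX males and XY males, mice with the same gonadal sex and different sex chromosomes. The comparison took the arrays whose sample code carries the letter a alone, which are 8 XX male arrays and 4 XY male arrays, 12 of the 37 arrays with signal in the series. The letter was taken as a mark of the array run, so both groups come from the same run. All animals were of the MF1 strain and 152 days old. The codes of both groups name Sry, the gene that starts testis development, and the labels do not say where in the genome it is carried. Total RNA from the dissected striatum of each animal was labelled with biotin and hybridised to an Illumina bead array of 25697 probes, 1 array per animal. The labels call the animals biological replicates. XX male 1 to 5 and all 4 XY males are in labelled batch 1, and XX male 6 to 8 are in labelled batch 2.

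An XX cell silences most genes of 1 of its X chromosomes early in development, and the noncoding RNA Xist coats the silenced chromosome. A small number of X-linked genes escape this silencing in mice and are transcribed from both X chromosomes. Several of them have a partner gene on the Y chromosome with a related product, so an XY cell holds an X copy and a Y copy. Genes of the pseudoautosomal region are present on the X and on the Y chromosome and pair at male meiosis. The striatum is the input nucleus of the basal ganglia. Most of its neurons are GABAergic projection neurons of a direct pathway, which carry the dopamine receptor Drd1, and of an indirect pathway, which carry Drd2.

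All levels below are background-corrected, quantile-normalized probe signals on a log2 scale. A difference is the XX male mean minus the XY male mean on that scale, with its standard error from the linear model. A feature is a named gene, represented by its brightest probe, or a probe without a gene name. A feature changed where its limma p-value, adjusted over all 8829 features by the Benjamini-Hochberg method, was below 0.05. Detected means a deposited detection p-value below 0.01 on that array. In whole tissue, fewer cells of a type and less RNA per cell cannot be told apart.

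Ppp1r1b, Drd1, Drd2 and Tac1, markers of striatal projection neurons, were detected on all 12 arrays. Ppp1r1b, which encodes the projection neuron phosphoprotein DARPP-32, had levels of 13.50, 14.15 and 14.50 (lowest, median and highest) in XX males, and of 13.48, 14.50, 13.34 and 13.37 in XY male 1, 2, 5 and 6. Drd1 averaged 10.09 ± 0.43 in XX males and 9.95 ± 0.36 in XY males, and Drd2 averaged 8.97 ± 0.41 in XX males and 8.63 ± 0.64 in XY males (SD, n = 8 and n = 4). Tac1, the substance P precursor of direct pathway neurons, averaged 12.31 ± 0.25 in XX males and 12.39 ± 0.47 in XY males. None of these 4 genes changed. Penk and Adora2a were not among the features tested.

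XY male 2 stood apart from the other XY male arrays. The first principal component held 52.6% of the variance. Its scores were -21.4 to 29.6 in XX males and -21.4, 27.2, -36.6 and -43.4 in XY male 1, 2, 5 and 6. XY male 2 therefore lay among the high XX males, and XX male 1 and 5 had negative scores as XY male 1, 5 and 6 did. The 90th percentile of the raw signal was 631.6 to 937.5 in XX males and 668.8 to 770.4 in XY males (exact permutation test over arrays, two-sided, p = 0.469). Detected probes numbered 10634 to 11254 in XX males and 10309 to 11467 in XY males (exact permutation test, p = 0.558). The smallest p this test can give is 0.00202. The comparison was therefore also fitted without XY male 2, and values of that fit are given beside most list medians and where a named gene passed in it. XY male 2 was picked out by these same values. Leaving out the XY male array that lay among the XX males tends to widen differences and narrow the XY male spread. Calls of that fit are therefore not independent support for a difference. That fit called 8.37% of all features, so a lone call in a list can be near that share.

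**Figure D1:**
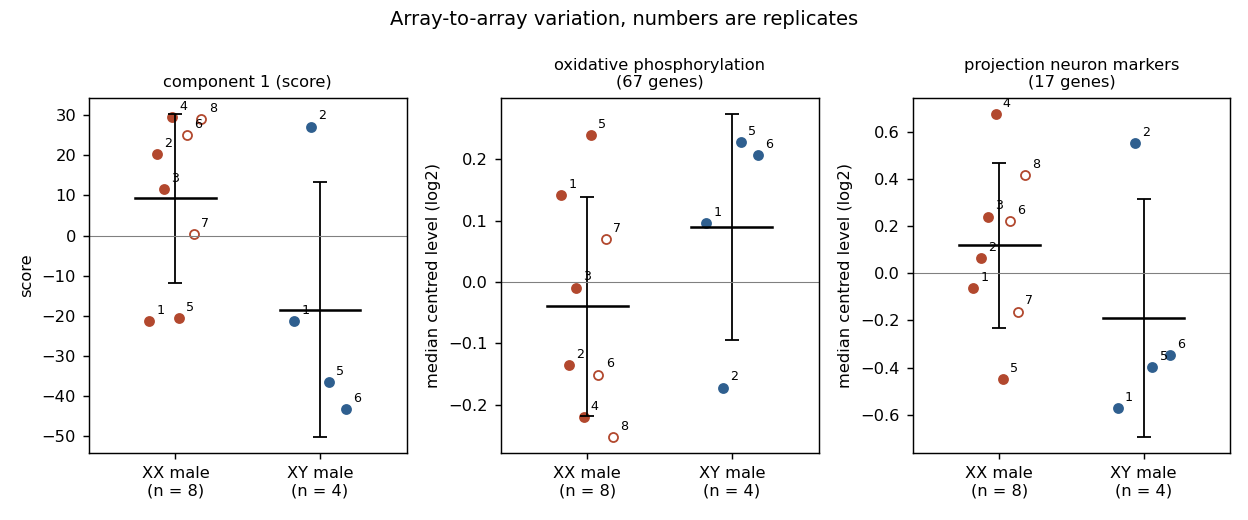
Principal component 1, the median level of 67 oxidative phosphorylation genes and the median level of 17 projection neuron markers, each gene centred on its mean over the 12 arrays (log2), in XX males (left) and XY males (right). Points are arrays with their replicate numbers, open points are labelled batch 2, bars are the mean and SD; XY male 2 lies apart from XY male 1, 5 and 6 in each panel.

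The comparison changed 3 features, 1 higher and 2 lower in XX males, which is 0.034% of those tested. All 3 are probes whose levels did not overlap between the groups. At an unadjusted p under 0.05 there were 1045 features. The groups did not overlap for 20 features with XX males higher, 0.227% of those tested, and for 36 with XX males lower, 0.408%. Over all features the median difference was 0.01 and 50.7% were positive.

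Xist was higher in XX males. Its levels were 6.36, 7.21 and 8.10 (lowest, median and highest) in XX males, and 4.31, 4.64, 4.44 and 4.40 in XY male 1, 2, 5 and 6. Every XX male lay above every XY male, and the probe was detected on all 8 XX male arrays and on 0 of 4 XY male arrays. The level was at least 3.62-fold higher in XX males, a bound set against the lowest signal of detected probes on each XY male array, and the fitted difference was 2.72 (SE 0.23, adjusted p = 4.338e-05). Within labelled batch 1 the difference was 2.85 (adjusted p = 0.0003364). Without XY male 2 it was 2.78 (adjusted p = 0.0001835).

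The other changed features are probes without a gene name in the annotation used here, and both fell in XX males. ILMN_1241001 had levels of 4.34, 4.39 and 4.57 in XX males, and of 6.99, 6.67, 7.23 and 7.40 in XY male 1, 2, 5 and 6. It was detected on 0 of 8 XX male arrays and on 4 of 4 XY male arrays. Its level was at least 3.5-fold lower in XX males, and the fitted difference was -2.65 (SE 0.13, adjusted p = 1.108e-07).

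ILMN_2899599 had levels of 4.39, 5.15 and 5.97 in XX males, and of 8.88, 9.61, 9.48 and 9.88 in XY male 1, 2, 5 and 6. It was detected on 3 of 8 XX male arrays and on all 4 XY male arrays. The gap between the groups was wider than the spread within either of them. The difference was -4.31 (SE 0.27, adjusted p = 9.368e-07). In labelled batch 1 alone the differences were -2.66 for ILMN_1241001 and -4.10 for ILMN_2899599, and both kept their calls (adjusted p = 2.821e-05 for each).

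The 2 XXY males of the same run, not part of the fit, carry a second X and a Y chromosome. Normalized together with the other arrays, ILMN_1241001 was at 7.13 and 6.65 in XXY males, against 4.35 to 4.58 in XX males and 6.68 to 7.42 in XY males. ILMN_2899599 was at 9.50 and 9.21 in XXY males, against 4.40 to 5.98 in XX males and 8.90 to 9.90 in XY males. Both probes thus had XXY values near or within the XY male range. Xist was at 5.98 and 7.36 in XXY males, against 6.38 to 8.12 in XX males and 4.32 to 4.65 in XY males.

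**Figure D2:**
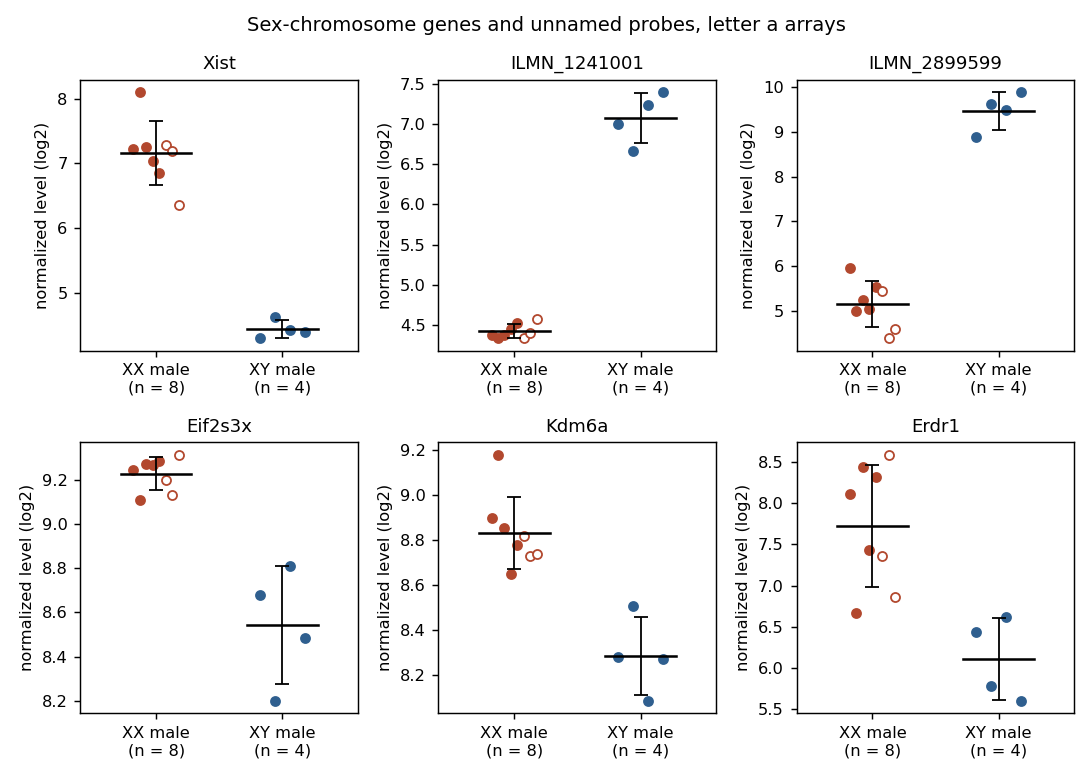
Normalized level (log2) of Xist, of the unnamed probes ILMN_1241001 and ILMN_2899599, and of Eif2s3x, Kdm6a and Erdr1 on each array, XX males left and XY males right. Points are animals, open points are labelled batch 2, bars are the mean and SD, and each panel has its own axis; the groups do not overlap in any panel.

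Of the list of genes that escape X inactivation, 7 of 16 members were measured. The list also counts Xist, the RNA that coats the silenced chromosome, which is not an escape gene in the sense given above. All 7 had positive differences, with a median of 0.65 against 0.01 over all features. Xist alone changed, so no escape gene proper did, and the groups did not overlap for Xist, Eif2s3x and Kdm6a. Eif2s3x and Kdm6a are the members whose animals separate most clearly after Xist.

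Eif2s3x encodes the gamma subunit of the translation initiation factor eIF2, and its Y partner is Eif2s3y. Its levels were 9.11, 9.25 and 9.31 in XX males, and 8.68, 8.20, 8.81 and 8.48 in XY male 1, 2, 5 and 6. All 8 XX males lay above all 4 XY males, and the XX male spread was narrow (SD 0.07, n = 8). The difference was 0.68 (SE 0.12) and did not pass (adjusted p = 0.1186). It passed without XY male 2, at 0.57 (adjusted p = 0.03373), and without background correction, at 0.55 (adjusted p = 0.02598). It also passed in the fit of all 37 arrays with batch and run terms, at 0.64 (adjusted p = 0.0005433). In labelled batch 1 the difference was 0.69 (adjusted p = 0.8116).

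Kdm6a encodes a demethylase of histone H3 lysine 27, and its Y partner is Uty. Its levels were 8.65, 8.80 and 9.18 in XX males, and 8.28, 8.50, 8.08 and 8.27 in XY male 1, 2, 5 and 6. The groups did not overlap. The difference was 0.54 (SE 0.12) and did not pass (adjusted p = 0.4107). A second Kdm6a probe had a difference of 0.67 (SE 0.14) in a fit over probes. Without XY male 2 the kept probe had a difference of 0.62, which passed (adjusted p = 0.03373). The XXY males had Eif2s3x at 9.20 and 9.13, against 9.13 to 9.33 in XX males and 8.22 to 8.83 in XY males. Kdm6a was at 8.61 and 8.59 in XXY males, against 8.67 to 9.20 in XX males and 8.10 to 8.52 in XY males.

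The start regions of these 3 X-linked genes are shown because their levels separated the animals. Each runs 5′ to 3′ on the gene's strand, with 250 bases before the annotated start and 30 after it, from RefSeq on GRCm38.p6. Capitals mark AANATGGC on either strand, the core of the motif of the zinc finger factor YY1. It was found in 5.22% of 32851 such windows.
Xist: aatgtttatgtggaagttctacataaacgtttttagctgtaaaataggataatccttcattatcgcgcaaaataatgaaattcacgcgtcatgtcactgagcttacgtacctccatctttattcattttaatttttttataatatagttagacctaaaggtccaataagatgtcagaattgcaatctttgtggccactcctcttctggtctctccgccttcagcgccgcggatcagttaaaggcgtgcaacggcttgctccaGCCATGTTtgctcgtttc
Eif2s3x: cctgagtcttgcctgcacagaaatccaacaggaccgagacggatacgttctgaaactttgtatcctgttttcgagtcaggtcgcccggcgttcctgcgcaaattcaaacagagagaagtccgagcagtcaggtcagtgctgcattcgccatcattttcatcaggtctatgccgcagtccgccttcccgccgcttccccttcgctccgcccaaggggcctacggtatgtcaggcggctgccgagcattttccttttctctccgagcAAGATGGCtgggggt
Kdm6a: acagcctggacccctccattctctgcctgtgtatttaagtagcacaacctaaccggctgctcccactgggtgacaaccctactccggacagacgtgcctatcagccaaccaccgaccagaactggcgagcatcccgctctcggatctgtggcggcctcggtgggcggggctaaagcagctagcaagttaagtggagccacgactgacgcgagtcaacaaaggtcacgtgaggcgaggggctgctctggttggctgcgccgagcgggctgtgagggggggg
The Xist window lies at chrX:103483204-103483483 on the minus strand, the Eif2s3x window at chrX:94212622-94212901 on the minus strand and the Kdm6a window at chrX:18162325-18162604 on the plus strand. Xist had 1 match, on the other strand, Eif2s3x had 1 on its own strand and Kdm6a had 0. CpG dinucleotides numbered 13 in the Xist window, 20 in the Eif2s3x window and 18 in the Kdm6a window, against a median of 6 over all windows. A match is a description of these letters and not a measured site.

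The remaining escape genes overlapped between the groups. Bgn encodes biglycan, a proteoglycan of the extracellular matrix. Its levels were 6.72, 7.33 and 7.63 in XX males, and 6.12, 7.00, 6.06 and 6.16 in XY male 1, 2, 5 and 6. Only XY male 2 reached into the XX male range. The difference was 0.89 (SE 0.21, adjusted p = 0.4107), and 1.11 without XY male 2 (adjusted p = 0.03054).

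Ddx3x encodes an RNA helicase with the Y partner Ddx3y. It averaged 6.12 ± 0.35 in XX males and 5.47 ± 0.41 in XY males (SD, n = 8 and n = 4) and was detected on all 8 XX male arrays and 2 of 4 XY male arrays. Its difference of 0.65 (SE 0.21) did not pass, and without XY male 2 it was 0.83 (adjusted p = 0.03941). Pbdc1 had a difference of 0.15 (SE 0.12). Car5b, a mitochondrial carbonic anhydrase gene, had 0.05 (SE 0.13) for the kept probe and -0.07 (SE 0.16) for a second probe.

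The X partners of Y genes numbered 5 measured of 9 on the list, and all 5 had positive differences, with a median of 0.54. Besides Eif2s3x, Kdm6a and Ddx3x these are Zfx, a zinc finger transcription factor gene, and Rbmx, which encodes an RNA-binding protein of the nucleus. Zfx averaged 8.58 ± 0.31 in XX males and 8.07 ± 0.51 in XY males. Its highest XY male level, 8.77, belonged to XY male 2. The Zfx difference was 0.52 (SE 0.22, adjusted p = 0.4107), and 0.75 without XY male 2 (adjusted p = 0.04008). Rbmx had a difference of 0.25 (SE 0.17) with XY male 2 and 0.34 without it, and passed in neither case.

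Erdr1 was the pseudoautosomal gene measured, of 4 on the list. Its levels were 6.67, 7.77 and 8.59 in XX males, and 6.44, 5.78, 6.62 and 5.60 in XY male 1, 2, 5 and 6. The groups did not overlap, with a gap of less than 0.1 between the lowest XX male and the highest XY male. The difference was 1.61 (SE 0.36) and did not pass (adjusted p = 0.4023), and without XY male 2 it was 1.503 (adjusted p = 0.04276). In XXY males Erdr1 was at 7.81 and 7.59. Of 10 Y-linked genes on the list, Uty was the only one with a named probe, and it was below the detection filter, detected on 1 of 8 XX male arrays and 2 of 4 XY male arrays.

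The X chromosome as a whole had no shift of this size. Of 270 X-linked genes 139 had positive differences, with a median of 0.01, and of 7806 autosomal genes 3961 did, also with a median of 0.01. The groups did not overlap for 4 X-linked genes, or 1.48% against 0.634% of all features. All 4 had XX males higher, namely Xist, Eif2s3x, Erdr1 and Kdm6a. Without the members of the escape and pseudoautosomal lists, 131 of 262 X-linked genes were positive and the groups overlapped for all of them. Without XY male 2 the fit called 25 of 270 X-linked genes, or 9.26%, and 8.31% of autosomal genes.

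**Figure D3:**
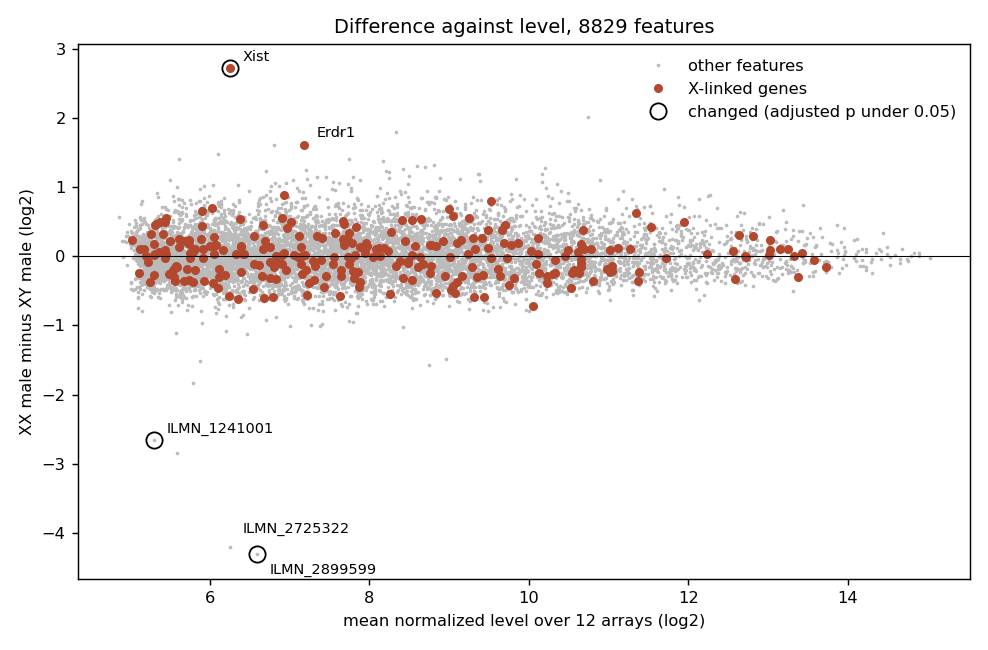
Difference between XX males and XY males (log2) against the mean level over the 12 arrays (log2) for 8829 features. X-linked genes are in red and the 3 changed features are circled; apart from Xist and Erdr1, X-linked genes lie within the band of the other features.

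X-linked genes outside the escape list were also read by function. Of 16 measured neuronal genes of the X chromosome 13 had positive differences, with a median of 0.29, or 0.44 without XY male 2, and 0 changed over the 12 arrays. Syn1, which encodes the synaptic vesicle protein synapsin I, had the highest at 0.63 (SE 0.31), with 11.56 ± 0.55 in XX males and 10.93 ± 0.62 in XY males. Tceal5 had a difference of 0.50 (SE 0.24), the creatine transporter gene Slc6a8 had 0.46 (SE 0.19) and Bex2 had 0.30 (SE 0.12). Tceal5 and Bex2 passed without XY male 2, at 0.77 (adjusted p = 0.04089) and 0.40 (adjusted p = 0.04991). The level of this list was -0.24 to 0.35 in XX males, relative to each gene's mean, and -0.39, 0.13, -0.37 and -0.28 in XY male 1, 2, 5 and 6, so that XY male 2 lay with the XX males. Of 16 measured X-linked housekeeping genes 4 had positive differences, with a median of -0.14, or -0.02 in labelled batch 1, and 0 changed. The glycolytic gene Pgk1 had -0.36 (SE 0.18), the purine salvage gene Hprt had -0.33 (SE 0.18) and Prps1 had -0.24 (SE 0.16).

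Genes of the silencing machinery held no changed member over the 12 arrays. Of 11 measured members 6 had positive differences, with a median of 0.06, against 8 of 11 and 0.12 without XY male 2. The Polycomb subunit genes Suz12, Ezh2 and Eed had differences of 0.42 (SE 0.21), 0.29 (SE 0.17) and -0.29 (SE 0.25), and Suz12 passed without XY male 2, at 0.67 (adjusted p = 0.04034). The lysine demethylase family had 8 of 10 positive, with a median of 0.10, against 6 of 10 and 0.18 without XY male 2. Kdm6b, an autosomal relative of Kdm6a, had 0.78 (SE 0.36), at 7.34 ± 0.54 in XX males and 6.56 ± 0.90 in XY males. Its XY male values were 6.21, 7.91, 6.12 and 5.99 in XY male 1, 2, 5 and 6, of which XY male 2 alone lay in the XX male range. The Kdm6b difference was 1.23 without XY male 2 (adjusted p = 0.03503).

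The letter b run offered a comparison with no shared animal, 9 XX females against 4 XY males. Its XX animals are female, so gonadal sex differs between its groups as well. The labelled batches are unbalanced the opposite way in each run. In letter a, XX males number 5 in batch 1 and 3 in batch 2 while all 4 XY males are in batch 1. In letter b, XX females number 5 in batch 1 and 4 in batch 2 while all 4 XY males are in batch 2. Eif2s3x had a difference of 0.66 (SE 0.11) in the letter a arrays and 0.72 (SE 0.11) in the letter b arrays, when all were normalized together. Kdm6a had 0.53 (SE 0.15) in letter a and 0.58 (SE 0.15) in letter b, and Xist had 3.39 (SE 0.35) and 3.25 (SE 0.35). The differences of these 3 genes in both runs were closer to each other than 1 standard error of their gap. Ddx3x had 0.79 (SE 0.29) in letter a and 0.24 (SE 0.29) in letter b, and Pbdc1 had 0.14 (SE 0.14) and 0.61 (SE 0.13). Bgn had 0.96 (SE 0.26) in letter a and -0.61 (SE 0.26) in letter b, Zfx had 0.51 (SE 0.21) and -0.26 (SE 0.21), and Erdr1 had 1.72 (SE 0.47) and 0.10 (SE 0.46). The letter a minus letter b gaps of Bgn, Zfx and Erdr1 were 1.58, 0.77 and 1.61, and none of them passed (adjusted p = 0.1351, 0.1387 and 0.1459). With labelled batch as a covariate the gap was 0.0021 for Eif2s3x, -0.18 (SE 0.24) for Kdm6a and 0.65 (SE 0.53) for Xist, and those of Bgn, Zfx and Erdr1 were 1.45, 0.67 and 1.83 (adjusted p = 0.3227, 0.3267 and 0.3227).

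**Figure D4:**
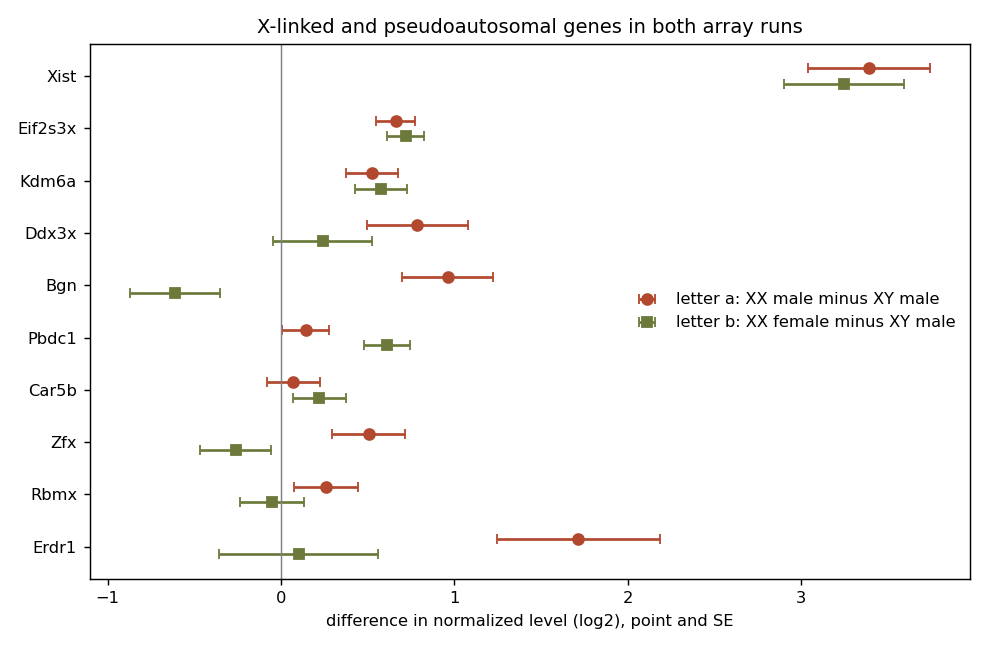
Differences (log2, point and SE) of X-linked and pseudoautosomal genes in the letter a run, XX males minus XY males (red circles), and in the letter b run, XX females minus XY males (green squares). Xist, Eif2s3x and Kdm6a have like differences in both runs, and the points of Bgn and Zfx lie on opposite sides of 0.

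Over all 9853 features the letter a and letter b differences had a correlation of -0.526, or -0.492 with labelled batch as a covariate. Over X-linked genes the correlation was -0.097. Among genes named below, Flt1 had 1.91 in letter a and -0.92 in letter b, Bcl11b had 1.03 and -0.77, and Rgs5 had 0.62 and 0.39. Of 9853 features tested for a gap between the runs 3 passed, or 0.0304% (2740 without adjustment for the number of features). For ILMN_1241001 the XX groups were at background in both runs, at 4.59 in XX males of letter a and 4.58 in XX females of letter b, with no array detected in either. The XY males were at 7.93 in letter a and 6.86 in letter b, detected on all 4 arrays of each. The gap of -1.06 (SE 0.15, adjusted p = 0.003107) therefore equals, but for 0.01, the distance between the XY male levels of the runs. The changed probe ILMN_2899599 had -4.64 (SE 0.38) in letter a and -3.32 (SE 0.38) in letter b. Its gap of -1.32 (SE 0.54) did not pass (adjusted p = 0.1459). The probe ILMN_2993661 had a difference of 0.43 in letter a and -1.36 in letter b (gap 1.78, SE 0.31, adjusted p = 0.03241). Thsd4, a gene of the thrombospondin domain family, had 1.15 in letter a and -0.73 in letter b (gap 1.88, SE 0.34, adjusted p = 0.03492). With labelled batch as a covariate ILMN_1241001 alone passed, at -1.08 (adjusted p = 0.02764), and ILMN_2993661 and Thsd4 did not (adjusted p = 0.07434 and 0.3227). The count was 2383 without XY male 2.

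Of 7806 named autosomal genes 0 changed (limma, with 924 at an unadjusted p under 0.05). The groups did not overlap for 14 with XX males higher and for 31 with XX males lower, in all 0.576% against 0.634% of all features. The largest such difference was that of Smap1, which encodes a GTPase-activating protein of clathrin traffic. Its levels were 6.98, 7.50 and 7.74 in XX males, and 6.48, 6.90, 6.32 and 6.03 in XY male 1, 2, 5 and 6. The Smap1 difference was 0.99 (SE 0.18, adjusted p = 0.1186), and 1.14 without XY male 2 (adjusted p = 0.02897). Coa7 had 0.86 (SE 0.18), detected on all 8 XX male arrays and on 1 of 4 XY male arrays. Thsd4 was detected on 4 of 8 XX male arrays and 0 of 4 XY male arrays, so it met the detection filter through XX males alone. Its mean over these XX males was at least 1.08-fold higher, a bound that carries no error and is not support for a difference. The fitted Thsd4 difference was 0.80 (SE 0.20) and did not pass (adjusted p = 0.4107). Without XY male 2, Coa7 had 1.06 (adjusted p = 0.02897) and Thsd4 had 0.86 (adjusted p = 0.04239).

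Ramp2, a co-receptor of the adrenomedullin receptor, had levels of 8.33 to 9.07 in XX males and 7.88 to 8.21 in XY males, with a difference of 0.70 (SE 0.16). Stt3b, a catalytic subunit of oligosaccharyltransferase, had 10.37 to 11.19 in XX males and 10.04 to 10.20 in XY males, with a difference of 0.61 (SE 0.15). Cdc14b, Mtmr12 and Ppp4r3b had differences of 0.58 (SE 0.14), 0.57 (SE 0.18) and 0.56 (SE 0.14). A second probe of Cdc14b was at -0.04 (SE 0.15). In labelled batch 1 that probe is the brighter one, and Cdc14b then had 0.0051. With XX males lower were Ccdc61, at -0.71 (SE 0.15), and Tor1a, which encodes the AAA protein torsin-1A, at -0.57 (SE 0.14). In the fit without XY male 2, Ramp2 had 0.76 and Ccdc61 had -0.82 (adjusted p = 0.03373 for each), Stt3b had 0.64 (adjusted p = 0.04173), Cdc14b had 0.59 (adjusted p = 0.03955), Ppp4r3b had 0.62 (adjusted p = 0.0363) and Tor1a had -0.67 (adjusted p = 0.03373). Mtmr12 did not pass in that fit.

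The unnamed probe ILMN_2725322 was chosen after its values were seen. Its levels were 4.36, 4.53 and 6.13 in XX males, and 9.65, 7.43, 6.73 and 12.41 in XY male 1, 2, 5 and 6. The groups did not overlap, but the XY male values spread widely (SD 2.56, n = 4). The difference was -4.20 (SE 0.79) and did not pass (adjusted p = 0.1186). It passed without XY male 2, at -4.74 (adjusted p = 0.03054), and without XY male 5, at -4.98 (adjusted p = 0.03678). In the 2 XXY males, which also carry a Y chromosome, it was at 4.41 and 4.61.

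Over the 12 arrays, lists of striatal neurons held no changed gene. Projection neuron markers shared by both pathways had 15 of 17 positive differences, with a median of 0.34, or 0.54 without XY male 2. Their list level was -0.45 to 0.67 in XX males, and -0.57, 0.55, -0.40 and -0.35 in XY male 1, 2, 5 and 6. Over the 12 arrays that level had a correlation of 0.879 with principal component 1. The correlation was 0.935 for X-linked neuronal genes, 0.876 for endothelial markers and 0.875 for glutamate receptor genes. It was -0.954 for oxidative phosphorylation genes, -0.91 for cytosolic ribosomal protein genes and -0.004 for mural and meningeal markers. Differences of lists that follow this component are not separate from each other. Bcl11b, a transcription factor gene of projection neurons, had levels of 10.22, 11.52 and 12.01 in XX males, and of 9.77, 12.06, 9.43 and 9.36 in XY male 1, 2, 5 and 6. The array of XY male 2 was higher than every XX male there. The Bcl11b difference was 1.10 (SE 0.49, adjusted p = 0.4107), and 1.74 without XY male 2 (adjusted p = 0.03373). Foxp1 had 0.92 (SE 0.43) and Arpp21 had 0.34 (SE 0.16), and without XY male 2 these were 1.48 (adjusted p = 0.03373) and 0.50 (adjusted p = 0.04922).

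Direct pathway markers had 4 of 6 positive differences, with a median of 0.16, and indirect pathway markers 4 of 4, with a median of 0.25. These medians were 0.30 and 0.46 without XY male 2, with no call in that fit. Sfxn1, Slc35d3 and Pdyn, the prodynorphin gene, had 0.44 (SE 0.18), 0.24 (SE 0.25) and 0.17 (SE 0.18). Sp9, Drd2 and Plxdc1 had 0.36 (SE 0.26), 0.34 (SE 0.27) and 0.17 (SE 0.19). Drd1 had 0.14 (SE 0.23) and Tac1 had -0.08 (SE 0.19).

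Interneuron genes were mixed in direction. Cholinergic markers had 4 of 6 positive, with a median of 0.04, which was 0.23 without XY male 2 and -0.04 in labelled batch 1. Chat, which makes acetylcholine, had 0.54 (SE 0.24), the choline transporter gene Slc5a7 had 0.26 (SE 0.39) and the transcription factor gene Lhx8 had -0.36 (SE 0.18). GABAergic interneuron markers had 6 of 9 positive, with a median of 0.13, or 0.06 in labelled batch 1. Npy, at 11.26 ± 0.17 in XX males and 10.87 ± 0.29 in XY males, had 0.39 (SE 0.14). Calb2, the calretinin gene, had -0.79 (SE 0.38), and Slc32a1, the vesicular GABA transporter gene, had 0.30 (SE 0.20).

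Transmitter and peptide genes gave no call over the 12 arrays. Glutamate receptor genes had 7 of 7 differences above 0, with a median of 0.28, against 6 of 7 and 0.52 without XY male 2. The AMPA receptor genes Gria1 and Gria2 had 0.62 (SE 0.27) and 0.42 (SE 0.25), and Grik1 had 0.42 (SE 0.25). GABA receptor and transport genes had 6 of 8 positive, with Gabrb1 at 0.96 (SE 0.44), Slc6a11 at 0.44 (SE 0.26) and Gabrg1 at -0.54 (SE 0.23). Their median was 0.28, or 0.40 without XY male 2, where Gabrb1 passed at 1.42 (adjusted p = 0.04579). Dopamine synthesis and breakdown genes had 2 of 7 positive and a median of -0.08, or -0.26 without XY male 2, with Ddc at 0.39 (SE 0.25), Maob at 0.34 (SE 0.21) and Pts at -0.40 (SE 0.33).

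Neuropeptide genes had 5 of 16 positive differences, with a median of -0.37, which was -0.17 in labelled batch 1 and -0.55 without XY male 2. Avp, the vasopressin gene of the hypothalamus, had levels of 6.74, 8.34 and 11.37 in XX males, and of 8.99, 8.85, 10.99 and 10.99 in XY male 1, 2, 5 and 6. Both groups spanned several log2 units and overlapped, and the difference was -1.49 (SE 0.84). Gal had -0.73 (SE 0.40), Avpr1a had -0.38 (SE 0.20), Trh had -0.36 (SE 0.30) and Vgf had 0.82 (SE 0.37). Vgf passed without XY male 2, at 1.20 (adjusted p = 0.04745). Markers of the hypothalamus and pallidum, which border the striatum or lie near it, had 2 of 8 positive, with a median of -0.55, or -0.83 without XY male 2. Their summed linear signal was 786.1 to 8732 in XX males and 1769 to 13650 in XY males, with 6 of the 8 detected on all 12 arrays. Avp is on the peptide list and on this one, so their medians are not separate observations. The part of neighbouring tissue in the peptide differences was not tested.

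Hormone and activity genes were read next. Sex steroid synthesis and receptor genes had 4 of 8 positive, with a median of -0.16, or -0.08 without XY male 2. In that fit Tspo, the mitochondrial translocator protein gene, was lower in XX males, at -0.80 (adjusted p = 0.04922). The coactivator gene Ncoa1 had 0.50 (SE 0.28), Hsd17b4 had 0.31 (SE 0.16) and Hsd3b2 had -0.38 (SE 0.21). Genes known to respond to glucocorticoids or androgens had 15 of 18 positive, with a median of 0.32, and 0 changed over the 12 arrays. Klf9 was at 11.57 ± 0.55 in XX males and 10.75 ± 0.71 in XY males, and Fkbp5, a co-chaperone of steroid receptors, was at 6.88 ± 0.59 in XX males and 6.07 ± 0.83 in XY males. Their differences were 0.82 (SE 0.33) and 0.81 (SE 0.36), and Pdk4 had 0.57 (SE 0.26). Klf9 and Fkbp5 passed without XY male 2, at 1.12 (adjusted p = 0.04673) and 1.18 (adjusted p = 0.04579).

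Immediate early genes, which neurons transcribe within minutes of activity, had 10 of 11 positive differences, with a median of 0.41. Fosb was the member whose groups did not overlap. Its levels were 5.36, 5.54 and 5.93 in XX males, and 5.13, 5.02, 4.94 and 5.27 in XY male 1, 2, 5 and 6. It was detected on all 8 XX male arrays and on 0 of 4 XY male arrays, so it met the detection filter through XX males alone. Its mean over these XX males was at least 1.25-fold higher, a bound that carries no error, and the difference did not pass (adjusted p = 0.4107). Arc had 0.63 (SE 0.34) and Junb had 0.44 (SE 0.22). Egr4 passed without XY male 2, at 1.29 (adjusted p = 0.04239).

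**Figure D5:**
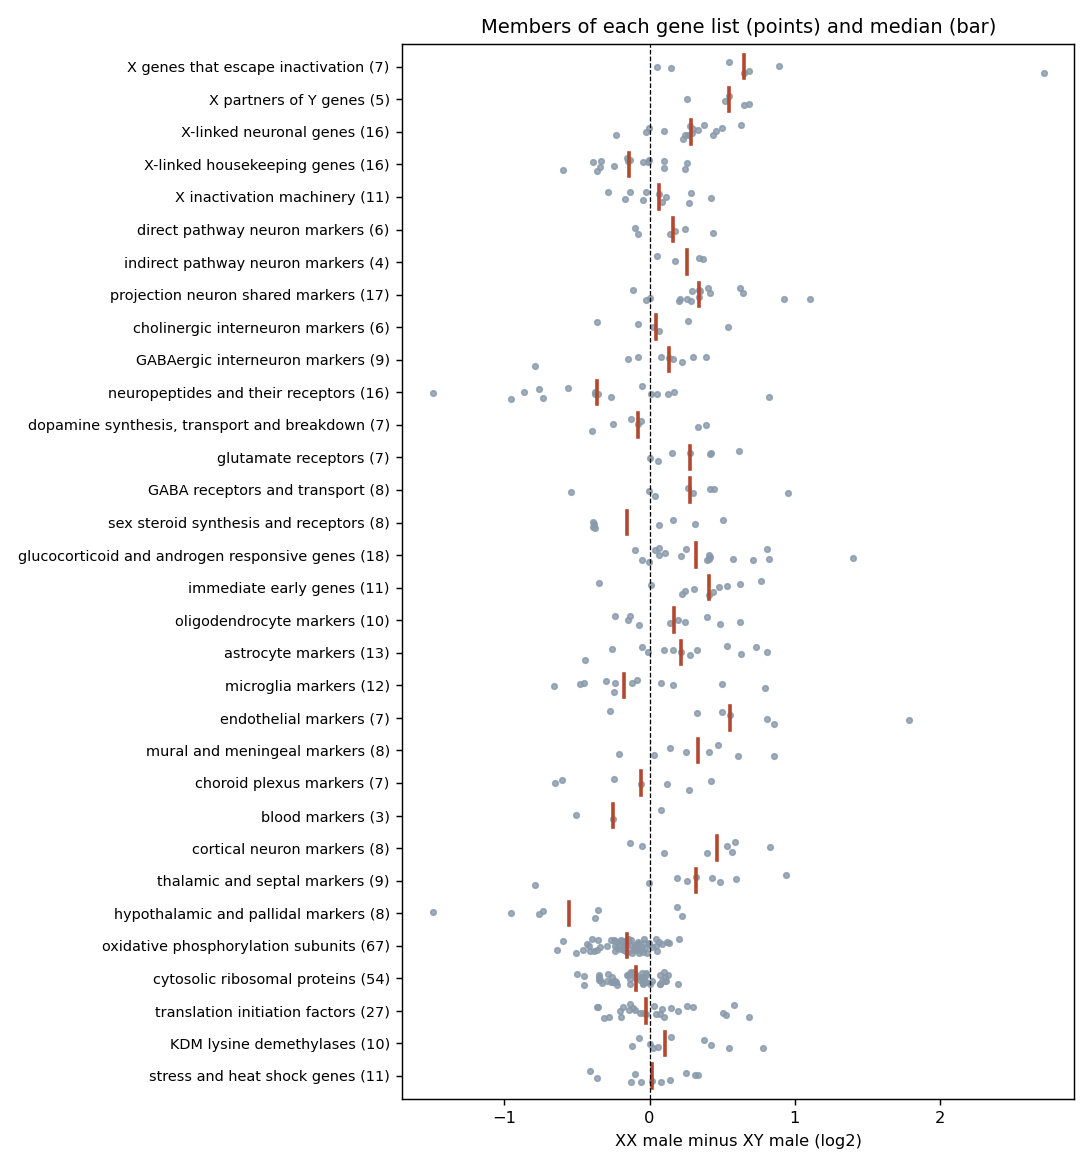
Differences between XX males and XY males (log2) of the measured members of each gene list (points), with the list's median (red bar), its number of measured members in brackets and the median of all features (dashed line). Xist at 2.72 and Flt1 at 1.79 are the highest points; Xist is the only member of these lists that changed.

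Genes of vessels were mostly above 0. Endothelial markers had 6 of 7 positive, with a median of 0.55, and mural and meningeal markers 7 of 8, with a median of 0.33. These medians were 0.72 and 0.12 without XY male 2. Flt1, a receptor for vascular endothelial growth factor, had levels of 6.82, 8.34 and 8.95 in XX males, and of 6.11, 8.54, 5.59 and 5.52 in XY male 1, 2, 5 and 6. XY male 1, 5 and 6 lay below every XX male, and XY male 2 lay among them. The Flt1 difference was 1.79 (SE 0.51, adjusted p = 0.4107), and 2.49 without XY male 2 (adjusted p = 0.02182). Pecam1 had 0.81 (SE 0.22), the glucose transporter gene Slc2a1 had 0.55 (SE 0.21), and Acta2, the smooth muscle actin gene, had 0.86 (SE 0.25). For Acta2, the other 3 probes had differences of 0.04, 0.14 and 0.40. Rgs5 and Vtn, markers of pericytes, had 0.61 (SE 0.27) and 0.47 (SE 0.22). The calls without XY male 2 were Flt1, Pecam1 at 1.05 (adjusted p = 0.03373), Esam at 1.23 (adjusted p = 0.04801), Acta2 at 1.18 (adjusted p = 0.02897), Rgs5 at 0.90 (adjusted p = 0.04089) and Vtn at 0.69 (adjusted p = 0.04922). The summed endothelial signal was 3737 to 4499 in XX males and 3141 to 3983 in XY males.

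Oligodendrocyte markers had 6 of 10 positive, with a median of 0.17 that was -0.10 in labelled batch 1 and 0.22 without XY male 2, and their summed signal was 32560 to 65020 in XX males and 34860 to 60590 in XY males. Pdgfra, a receptor gene of oligodendrocyte precursors, had 0.62 (SE 0.17), Olig1 had 0.48 (SE 0.24) and Cldn11 had 0.39 (SE 0.28). Astrocyte markers had 9 of 13 positive, with a median of 0.22, or 0.39 without XY male 2. The glutamate transporter gene Slc1a2 had 0.81 (SE 0.35), the water channel gene Aqp4 had 0.73 (SE 0.31) and Sox9 had 0.63 (SE 0.25). Microglia markers had 4 of 12 positive, with a median of -0.18, or -0.25 without XY male 2. Cx3cr1 had 0.50 (SE 0.16), Laptm5 had 0.79 (SE 0.40) and Aif1 had -0.45 (SE 0.22). The calls in these lists without XY male 2 were Pdgfra at 0.75 (adjusted p = 0.03514), Slc1a2 at 1.16 (adjusted p = 0.04866), Cx3cr1 at 0.58 (adjusted p = 0.04922) and Laptm5 at 1.25 (adjusted p = 0.04518). They stand beside 8.37% of all features called in that fit.

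Markers of tissue around the striatum overlapped widely between the groups. The summed choroid plexus signal was 4417 to 26270 in XX males and 3451 to 25290 in XY males. The list had 3 of 7 members positive and a median of -0.06, which was -0.57 without XY male 2 and -0.51 in labelled batch 1. Kcne2 had -0.61 (SE 0.80), Calml4 had -0.65 (SE 0.52) and Clic6 had 0.42 (SE 0.39). Blood markers had 1 of 3 positive, with a median of -0.25, or -0.39 without XY male 2. Hbb-bt had -0.51 (SE 0.51), Alas2 had -0.25 (SE 0.26) and Hba-a1 had 0.08 (SE 0.21). Cortical neuron markers had 6 of 8 positive, with a median of 0.47, or 0.30 without XY male 2, and a summed signal of 4080 to 11180 in XX males and 3949 to 9611 in XY males. The kinase gene Camk2a had 0.83 (SE 0.37), Mef2c had 0.57 (SE 0.25) and Nrgn had 0.40 (SE 0.28). Thalamic and septal markers had 7 of 9 positive and a median of 0.32, which was 0.15 without XY male 2 and 0.12 in labelled batch 1. Rora had 0.94 (SE 0.44) and Ntng1 had 0.48 (SE 0.36). Calb2, which is also on the GABAergic interneuron list, had -0.79 (SE 0.38).

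Energy and ribosome genes had medians slightly below 0. Of 67 oxidative phosphorylation genes 9 had positive differences, with a median of -0.15, or -0.25 without XY male 2, and 0 changed over the 12 arrays. Their list level was -0.25 to 0.24 in XX males, and 0.10, -0.17, 0.23 and 0.21 in XY male 1, 2, 5 and 6. Cyc1 of complex III was at 11.24 ± 0.17 in XX males and 11.62 ± 0.27 in XY males, a difference of -0.38 (SE 0.14), and it passed without XY male 2, at -0.51 (adjusted p = 0.04018). Atp5o had -0.51 (SE 0.22) and Cox7a2l had -0.24 (SE 0.13). Of 54 cytosolic ribosomal protein genes 12 were positive, with a median of -0.10, or -0.19 without XY male 2. Within labelled batch 1, 21 of 54 were positive and the median was -0.02. Rps2 had -0.50 (SE 0.26), Rpl12 had -0.35 (SE 0.22) and Rpl34 had -0.33 (SE 0.19).

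Translation initiation factor genes had 13 of 27 positive and a median of -0.03. Eif2s3x had the highest difference among them. Eif3b passed without XY male 2, at 0.84 (adjusted p = 0.04922). Eif3j1 had 0.30 (SE 0.10) and Eif5a had -0.31 (SE 0.11). Stress and heat shock genes had 6 of 11 positive, with Hspb1 at 0.31 (SE 0.13), Hspd1 at 0.33 (SE 0.17) and Nqo1 at -0.36 (SE 0.18), and a median of 0.02, or -0.03 without XY male 2. In that fit Hspd1 passed, at 0.53 (adjusted p = 0.04544). The Hspb1 levels did not overlap, at 5.66 to 6.22 in XX males and 5.51 to 5.64 in XY males.

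The number of calls depended on XY male 2. Without it 739 features changed, 498 higher and 241 lower in XX males, or 8.37% of those tested, in place of 3. Leaving out any other array gave between 3 and 5. Without XY male 2, 5 of the 7 members of the escape list, Xist among them, and 4 of the 5 X partners rose. So did 4 of 17 projection neuron markers, the fourth being Scn4b at 1.10 (adjusted p = 0.04922), and 3 of 7 endothelial markers. The share of X-linked genes called was close to that of autosomal genes. The reason for the distance of XY male 2 from its group was not tested.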

How the data were processed

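Per the file headers, the authors deposited non-normalized intensity values of each probe on each array, linear in scale. Each comes with a deposited detection p-value, the number of beads and their standard error, of which the last was left unused. A second deposited table holds log2 values, for which the submitters' processing notes name limma. Its XX male columns ranked unlike their own arrays (Spearman correlations of 0.062 to 0.073, against 0.987 to 0.990 for XY males), so those log2 values served that check alone. How that table was scaled and centred is not given in the sources used here.

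The 12 arrays were background-corrected with the normexp model, whose control levels neqc infers from the detection p-values, then quantile-normalized and put on a log2 scale with an offset of 16 (neqc, limma 3.58.1, R 4.3.3). The offset makes differences of dim probes smaller. Probes detected (p below 0.01) on at least 4 of 12 arrays were kept, 11495 in all. The platform annotation gives 1 symbol for 11458 probes, several for 0 and none for 14239. By Entrez identifier 11454 matched RefSeq on GRCm38.p6, with 0 symbols changed. Each gene kept its brightest probe, which gave 8078 named genes and 751 unnamed probes.

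Groups were compared with limma (lmFit, eBayes) over the 12 arrays without covariates, with Benjamini-Hochberg adjustment over all features, and checked on simulated data. Arrays have no count depth, so the number of arrays and the signal over background limit precision. A bound is set where a probe was undetected on every array of the dimmer group. Such a probe met the detection filter through the other group alone. The bound compares the means of these arrays and carries no error. Lists are described by counts and medians, with no test. The genes named are every changed feature, every measured escape, X partner and pseudoautosomal gene, the 10 largest non-overlapping differences among X-linked and among autosomal genes, the 3 members of every other list with the smallest unadjusted p, and striatal markers. Syn1, ILMN_2725322 and, named as calls without XY male 2, Tspo, Egr4, Esam, Eif3b and Scn4b fall outside that rule and were chosen after their values were seen. The members and lists were chosen with earlier results of these data known.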

Additional observations from a re-analysis of the deposited data

Results flagged for a closer look

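Of 226 groups of values tested, 19 held an array whose gap to the nearest of the others was large for the group's range. For independent groups chance gives about 1 in 20. The genes were picked from these same data and share their arrays, so the count cannot be set against that rate. XX males held 3 of the 19 and XY males 16, of which 14 were XY male 2. In XX males these were XX male 2 for Kdm6a, at 9.18 against 8.65 to 8.90 in the other XX males, XX male 2 for Coa7, at 6.22 against 5.40 to 5.71, and XX male 5 for Nrgn, at 10.98 against 11.83 to 12.43.

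XY male 2 was above the other XY males for 12 genes. The neuronal ones were Bcl11b at 12.06, Foxp1 at 9.51, Slc32a1 at 13.19, Vgf at 10.68, Mef2c at 9.42 and Ppp1r1b at 14.50. The others were Bgn at 7.00, Ncoa1 at 9.22, Pdgfra at 7.77, Vtn at 9.25, Kdm6b at 7.91 and Hspd1 at 9.85. It was below them for Cyc1, at 11.22 against 11.74 to 11.78, and for Eif5a, at 10.53 against 10.82 to 10.86. XY male 1 was lowest for Slc35d3, at 6.98 against 8.02 to 8.09, and XY male 6 was highest for Avpr1a, at 6.15 against 5.13 to 5.27.

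The letter a contrast differed from the letter b contrast, by a test of the gap itself, for ILMN_1241001 at -1.06, ILMN_2993661 at 1.78 and Thsd4 at 1.88. For ILMN_1241001 the XX groups were at background in both runs, so its gap rests on the XY male levels of 7.93 in letter a and 6.86 in letter b. With labelled batch as a covariate only that probe passed.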

How the results depend on the processing

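The 3 changed features kept their calls in every alternative tried except the filter for probes detected on all 12 arrays, which removes them by construction and gave 0 calls in limma, with 872 features at an unadjusted p under 0.05. Array weights gave 3554 calls, with XY male 2 weighted at 0.246, and all 37 arrays with batch and run terms gave 5. Leaving out each array gave 3 to 739, the highest without XY male 2 and 5 without XX male 1. With the replicate number as a block the count was 3. Same-numbered arrays deviated together for numbers 2 and 5 (correlations of 0.418 and 0.464) and not for 1 and 6 (-0.177 and -0.429). As the first principal component held 52.6% of the variance, these correlations cannot decide whether the numbers pair the animals. Of 2647 gene values over 24 alternatives, 2506 kept direction and side of the threshold, 123 newly passed and 18 changed sign, and the cause was not tested. Car5b was -0.0103 as the mean of its probes and -0.0658 to 0.12 leaving out each array. Slc35d3 was -0.0446 with the block and -0.022 to 0.35 leaving out each array. Slc5a7 ran over -0.0499 to 0.62, Drd1 over -0.0184 to 0.27, Kcne2 over -1.62 to 0.0091 and Tac1 over -0.29 to 0.0631 in the same way. With all 37 arrays Kcne2 was 0.0138 and Tac1 0.0085. Hba-a1 was -0.0303 with median scaling, -0.0278 with the batch term and in batch 1, -0.0864 with array weights, -0.0237 with all 37 arrays, and -0.11 to 0.22 leaving out each array. Without background correction the 3 changed features had smaller differences, 1.03 for Xist, -0.98 for ILMN_1241001 and -2.465 for ILMN_2899599. Median scaling put the median of all features at 0.07. The count for the letter a and b gap, with alternatives chosen after seeing the data, was 1 without the detection filter, 1 with labelled batch as a covariate, and 1 to 2383 leaving out each array, the highest without XY male 2. Levels near background limit the unnamed probes, Thsd4, Coa7, Ddx3x, Fosb, Cdc14b, Pecam1 and Sp9, among others. Cdc14b, Pecam1 and Sp9 were each detected on 1 of 4 XY male arrays.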
